A study of Mus musculus with 6 samples.

Results

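Glycosaminoglycan synthesis was followed through 46 genes, out of the 26231 genes with deposited values. Most encode enzymes that make or modify chondroitin, dermatan and heparan sulfate and hyaluronan. Chst1 and Chst2 instead add sulfate to galactose and N-acetylglucosamine, the sugars of keratan sulfate. The genes were listed by symbol, and all 46 were found. They were chosen with earlier results of these data known, among them the difference between the lines, so that difference is given for them as a description and supports nothing. The cells were mouse embryonic fibroblasts (MEFs) of FVB background with Nf2 alleles flanked by loxP sites, immortalized with SV40 large T antigen. MEF Nf2fl/fl, titled WT (control) in the labels, had received a vector-control lentivirus with GFP, and MEF Nf2-/-, titled Nf2 KO, a lentivirus with Cre recombinase and GFP, both under the CMV promoter. Embryo age was about 14 days in the labels and 13 days in the methods of the study. Each line had 3 libraries of total RNA, from cells kept without serum for 24 h. There was 1 line of each kind, so an effect of Nf2 loss, of Cre or of divergence between the lines cannot be told apart, and p-values measure only the spread between these libraries.

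Glycosaminoglycans are long sugar chains. Chondroitin and heparan sulfate chains are built in the Golgi on serines of core proteins, starting from a shared linker that begins with xylose, and polymerases then extend them with alternating sugars. Sulfotransferases place sulfate at fixed positions of the chain, drawing on the donor PAPS, and an epimerase turns chondroitin into dermatan sulfate. Hyaluronan differs, since it is made at the plasma membrane without a core protein and is not sulfated. Fibroblasts are a main source of these chains in connective tissue, where the sulfate pattern helps to set which growth factors bind.

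Levels are in RPKM, which corrects the reads of a gene for its exon length and for sequencing depth, so those of different genes can be set side by side. The step of the low values put depth at 13428884 to 19242433 reads for replicates 1 and 2 of both lines, and at 61103425 and 72910883 reads for replicate 3, marked 2018 in the labels. Nf2 itself was at 14.3, 13.7 and 13.1 RPKM in MEF Nf2fl/fl, against 15.4, 12.9 and 13.9 RPKM in libraries labelled Nf2 KO (log2 fold change 0.03, limma adjusted p = 0.988). Nf2 RNA therefore did not separate the lines, the table holds no value for the removed exons, and the direction of every difference follows the labels. Of 10 fibroblast markers, 9 had a mean of at least 1 RPKM, and their summed level was 1850 to 2550 RPKM in MEF Nf2fl/fl and 1440 to 1880 RPKM in libraries labelled Nf2 KO. Pdgfra, Thy1, Vim, Fn1, Dcn and Lum were lower in all 3 libraries labelled Nf2 KO. The part of these markers in the differences between the lines was not tested. Summed markers of other cells overlapped between the lines, at 5.41 to 8.26 RPKM for 8 macrophage genes (mostly Cd68), 1.46 to 4.45 RPKM for 5 endothelial genes (mostly Kdr), 0.251 to 1.36 RPKM for 6 epithelial genes, 8.35 to 21 RPKM for 6 cartilage genes (mostly Sox9) and 0.831 to 6.63 RPKM for 5 skeletal muscle genes. Ptprc, Pecam1 and Acan stayed at or below 0.0286 RPKM in each library. The cartilage collagen Col2a1 did not, at 0.53 to 4.0 RPKM in MEF Nf2fl/fl and 0.825 to 1.72 RPKM in libraries labelled Nf2 KO. In bulk RNA, fewer cells of a kind and less RNA per cell cannot be told apart.

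Most of the machinery was expressed. With a filter of at least 1 RPKM in at least 3 libraries, 35 of the 46 genes were kept among 11067 genes tested. Mean levels of these 35 over the 6 libraries ran from 1.63 RPKM for Chst15 to 68.8 RPKM for Sulf2. After Sulf2 came Papss1 at 30.1, Hs6st2 at 29.8, Ugdh at 29.7, Chst14 at 22.5 and Chpf at 21.6 RPKM. The values of Papss1, Hs6st2 and Ugdh overlapped, so their order is not resolved. The other 11 genes, Xylt1, Chsy3, Chst3, Chst13, Extl1, Ndst3, Hs3st1, Hs3st3a1, Hs3st3b1, Has1 and Has3, had means of 0.0168 to 0.456 RPKM. Chst13, a chondroitin sulfotransferase, was listed at 0 in 4 libraries and rested on 6 and 5 reads in the deep replicate 3 libraries.

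**Figure D1:**
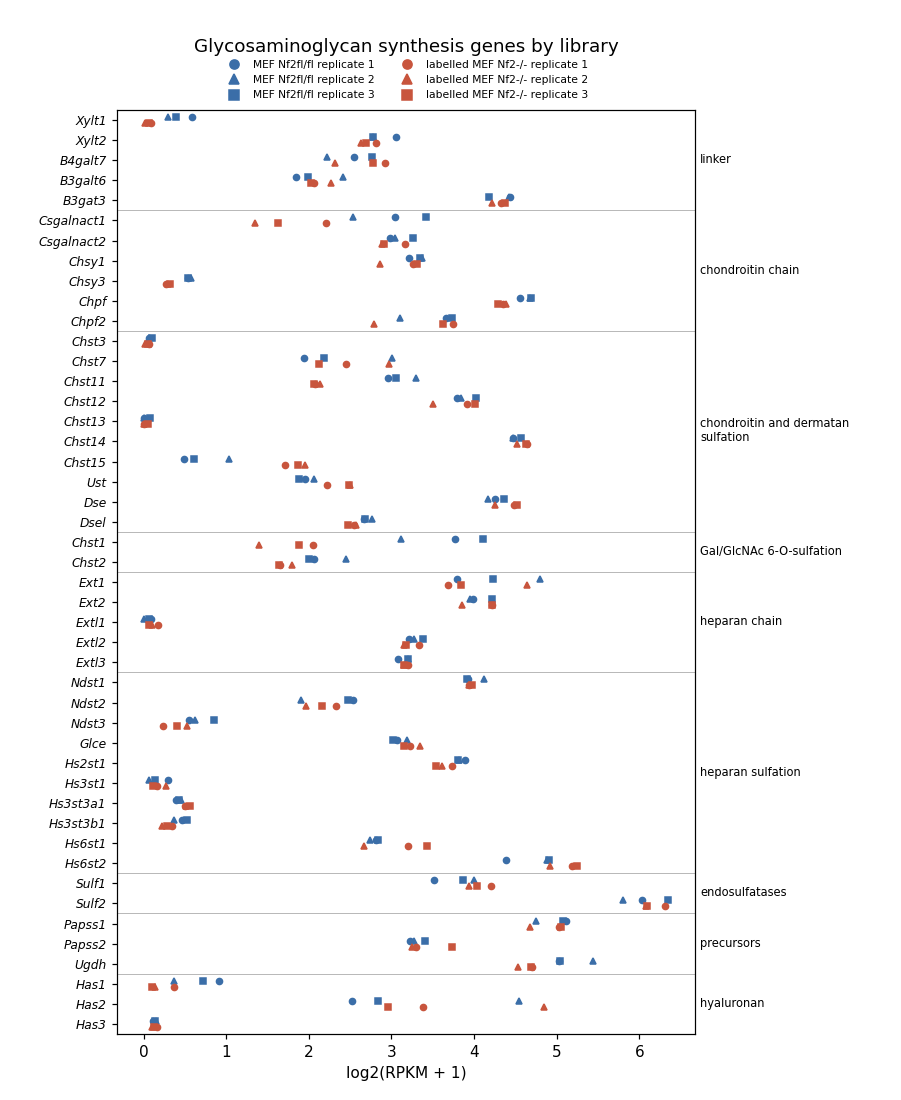
Level of each of the 46 genes in each library, as log2(RPKM + 1) on the horizontal axis, with genes grouped by role; blue marks are MEF Nf2fl/fl, red marks libraries labelled Nf2 KO, and the shape gives the replicate number. Sulf2 lies farthest to the right, 11 genes sit near 0, and the colours part at Csgalnact1, Chst11, Chst15 and Chst1.

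Between the lines, 3 of the 35 tested genes passed an adjusted p of 0.05 in the limma fit over all genes, Chst11 and Chst1 lower and Chst15 higher in libraries labelled Nf2 KO. Over all genes tested 1.06% passed (0.479% higher and 0.578% lower). The median log2 fold change of the 35 genes was -0.045, against -0.008 over all genes tested. Libraries of the same number moved together, and a fit blocked by that number passed 6 genes, adding Csgalnact1 and Chst2 among the lower and Ust among the higher ones. It passed 7.53% of all genes (2.99% higher and 4.54% lower). The libraries of the lines did not overlap in 11 of the 35 genes, 3 higher and 8 lower, where 15.1% of all genes tested did not overlap (7.6% higher and 7.52% lower). By class, 1 of the 6 belongs to chondroitin polymerization, 3 to chondroitin sulfation and 2 to the sulfation of galactose and N-acetylglucosamine.

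**Figure D2:**
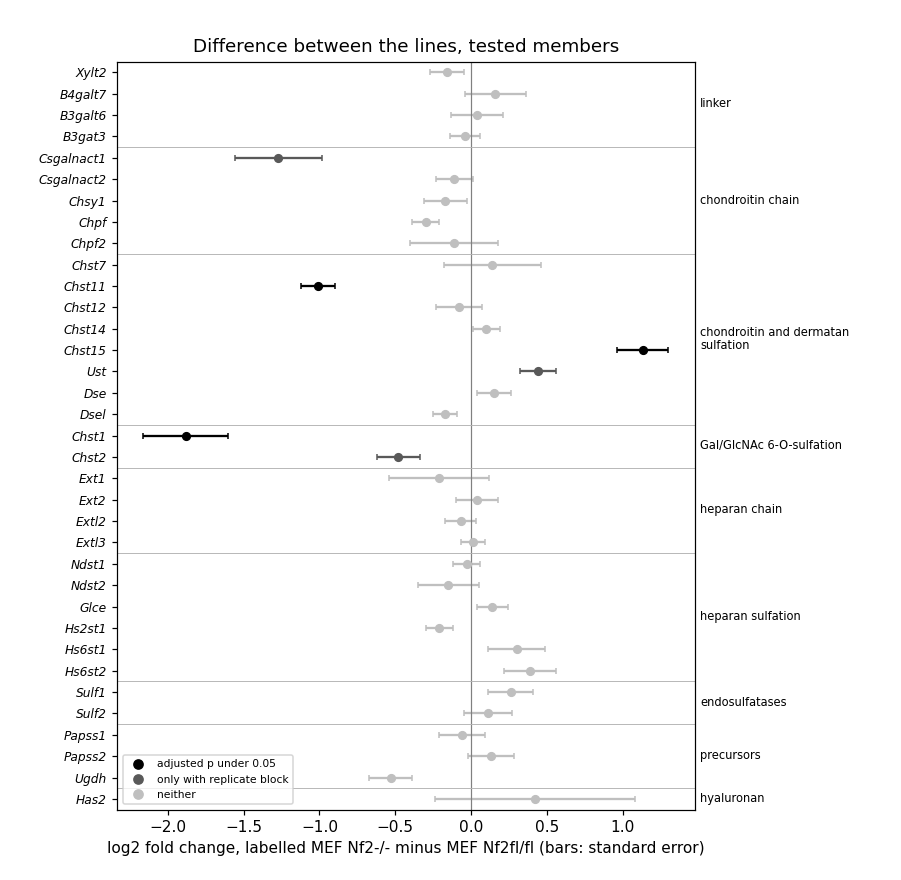
Log2 fold change of the 35 tested genes between libraries labelled Nf2 KO and MEF Nf2fl/fl, with the standard error from limma as bars, grouped by role; black points passed an adjusted p of 0.05, dark grey points passed only with the replicate block. Chst1 lies lowest at -1.88 and Chst15 highest at 1.13, while the heparan genes lie between -0.21 and 0.39.

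Chst11 and Chst15 act on the same sugar of the chondroitin chain, N-acetylgalactosamine. Chst11 puts a sulfate at its carbon 4, and Chst15 adds another sulfate to units that already carry that sulfate. Chst12, also a 4-O-sulfotransferase of chondroitin, had the higher mean over the 6 libraries, at 13.5 RPKM against 5.45 RPKM for Chst11. Chst11 lies on chromosome 10 of GRCm38, plus strand, from 82985498 to 83195900 (GENCODE vM21). It was at 6.79, 8.82 and 7.28 RPKM in MEF Nf2fl/fl, against 3.23, 3.41 and 3.17 RPKM in libraries labelled Nf2 KO. Each MEF Nf2fl/fl library lay above each of the others. The means were 7.63 ± 1.06 and 3.27 ± 0.128 RPKM (SD, n = 3 each). The log2 fold change on the log2(RPKM + 1) scale came to -1.01 (standard error, SE, 0.11, limma adjusted p = 0.0217 unblocked and 0.00441 blocked). The pairs of same-numbered libraries gave -0.88, -1.15 and -0.99.

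Chst15 went the other way. It lies on chromosome 7, minus strand, from 132235780 to 132317228, and 17.9% of its exon bases are shared with the annotated gene Gm10584, so its reads cannot be assigned with full certainty. It was at 0.407, 1.05 and 0.532 RPKM in MEF Nf2fl/fl, against 2.28, 2.89 and 2.65 RPKM in libraries labelled Nf2 KO. The groups did not overlap, and the low values rested on 36.9, 134.7 and 219.5 reads. The means were 0.664 ± 0.343 and 2.61 ± 0.306 RPKM (SD, n = 3 each). The log2 fold change came to 1.13 (SE 0.17, limma adjusted p = 0.0399 unblocked and 0.00564 blocked). Only 1 MEF Nf2fl/fl library reached 1 RPKM, so the gene passed the filter through the group in which it was high. The call was lost with quantile normalization (limma adjusted p = 0.0661), median centring (limma adjusted p = 0.0508) and a pseudocount of 0.1 (limma adjusted p = 0.0627). In these fits the log2 fold change was 1.162, 1.132 and 1.908.

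Chst1 showed the largest difference of the 35 genes. It transfers sulfate to carbon 6 of galactose, as in keratan sulfate. It lies on chromosome 2, plus strand, from 92599707 to 92615250. Its level was 12.6, 7.69 and 16.2 RPKM in MEF Nf2fl/fl, against 3.16, 1.64 and 2.70 RPKM in libraries labelled Nf2 KO. Replicate 2 was the lowest library of either line, and the lines did not overlap. The means were 12.1 ± 4.26 and 2.50 ± 0.775 RPKM (SD, n = 3 each). The log2 fold change came to -1.88 (SE 0.28, limma adjusted p = 0.0408 unblocked and 0.00307 blocked). In the unblocked limma fit, leaving out replicate 1 of both lines left 0 members past the threshold (7 with an unadjusted p under 0.05), and leaving out replicate 3 did the same (6 with an unadjusted p under 0.05). In those fits 0 of all genes passed. Leaving out a single replicate 1 or 3 library of either line also left 0 members, and leaving out replicate 2 of those labelled Nf2 KO left only Chst11. With no filter on low values the 3 genes did not pass either (limma adjusted p = 0.103 for Chst11, 0.145 for Chst15 and 0.155 for Chst1). With the block, each of the 3 genes passed whichever replicate number was left out, with limma adjusted p of 0.0121 to 0.0127 for Chst11, 0.00937 to 0.0259 for Chst15 and 0.00422 to 0.0145 for Chst1.

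The start-site windows of these 3 genes are shown because their levels differed most plainly between the lines. They come from RefSeq (GRCm38.p6) and run from 250 bases before to 50 bases after a start site, written 5′ to 3′ on the gene's strand. Capitals mark matches to GGAATG, the core letters bound by TEAD factors, the DNA partners of YAP and TAZ downstream of Merlin, searched on both strands and so also as CATTCC.
Chst11, chr10:82985247-82985546, plus strand: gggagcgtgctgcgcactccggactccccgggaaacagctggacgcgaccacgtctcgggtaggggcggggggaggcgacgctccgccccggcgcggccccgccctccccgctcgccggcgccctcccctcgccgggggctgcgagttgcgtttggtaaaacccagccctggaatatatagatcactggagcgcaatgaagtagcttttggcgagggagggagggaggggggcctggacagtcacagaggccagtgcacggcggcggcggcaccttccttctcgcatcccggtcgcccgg
Chst15, chr7:132317179-132317478, minus strand: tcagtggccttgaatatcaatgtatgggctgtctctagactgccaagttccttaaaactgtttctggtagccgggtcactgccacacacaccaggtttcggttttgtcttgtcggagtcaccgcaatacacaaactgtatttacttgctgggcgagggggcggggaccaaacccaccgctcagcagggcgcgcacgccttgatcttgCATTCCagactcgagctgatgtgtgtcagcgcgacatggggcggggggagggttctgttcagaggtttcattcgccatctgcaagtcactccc
Chst1, chr2:92600867-92601166, plus strand: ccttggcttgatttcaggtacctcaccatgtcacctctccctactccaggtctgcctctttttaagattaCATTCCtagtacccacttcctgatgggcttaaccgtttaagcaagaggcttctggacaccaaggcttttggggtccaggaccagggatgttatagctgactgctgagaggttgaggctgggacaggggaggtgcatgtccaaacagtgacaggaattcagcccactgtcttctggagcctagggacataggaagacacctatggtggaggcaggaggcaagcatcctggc
The Chst11 window held 0 matches, and the Chst15 and Chst1 windows held 1 each. The Chst1 window belongs to a RefSeq start inside the span that GENCODE gives the gene, and another RefSeq start of Chst15 lies close to the one shown and shares its match. The letters stood in 14.7% of all 32851 windows of this length, and in 9 of the 46 windows (19.6%) found for 37 of the genes. An AP-1 motif, TGANTCA on either strand, stood in 1 of the 46 windows, that of Csgalnact2, and in 7.81% of all windows. In base composition the windows stood at a median GC content of 65.2%, against 52.7% over all windows, and Chst11 held 34 CpG pairs where Chst1 held 1. A match is a description of letters and not of binding.

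Csgalnact1, Chst2 and Ust passed only with the block. Csgalnact1 adds the first N-acetylgalactosamine of a chondroitin chain, the step that commits the linker to chondroitin. Its level was 7.26, 4.80 and 9.68 RPKM in MEF Nf2fl/fl, against 3.64, 1.54 and 2.08 RPKM in libraries labelled Nf2 KO. The lines did not overlap, and replicate 2 was again the lowest library of each. The means were 7.25 ± 2.44 and 2.42 ± 1.09 RPKM (SD, n = 3 each). The log2 fold change came to -1.27 (SE 0.29, limma adjusted p = 0.147 unblocked and 0.0198 blocked). Without replicate 2 of both lines it passed in the unblocked fit too (limma adjusted p = 0.0318), and with the block it passed without replicate 1 or 3 but not without replicate 2 (limma adjusted p from 0.0175 to 0.0811).

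Chst2, which transfers sulfate to carbon 6 of N-acetylglucosamine, was at 3.19, 4.47 and 3.02 RPKM in MEF Nf2fl/fl, against 2.15, 2.47 and 2.11 RPKM in libraries labelled Nf2 KO. Its log2 fold change was -0.48 (SE 0.14, limma adjusted p = 0.262 unblocked and 0.0320 blocked). Ust, which puts sulfate on the uronic acid of chondroitin and dermatan chains, was at 2.87, 3.17 and 2.69 RPKM and at 3.66, 4.67 and 4.61 RPKM, and the log2 fold change came to 0.44 (SE 0.12, limma adjusted p = 0.205 unblocked and 0.0415 blocked). Both genes kept the lines apart in all 6 libraries. In both, the blocked call was lost once a replicate number was left out, with limma adjusted p of 0.0661 to 0.114 for Chst2 and 0.0605 to 0.14 for Ust. The log2 fold change in these fits ran from -0.535 to -0.391 for Chst2 and from 0.355 to 0.525 for Ust.

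**Figure D3:**
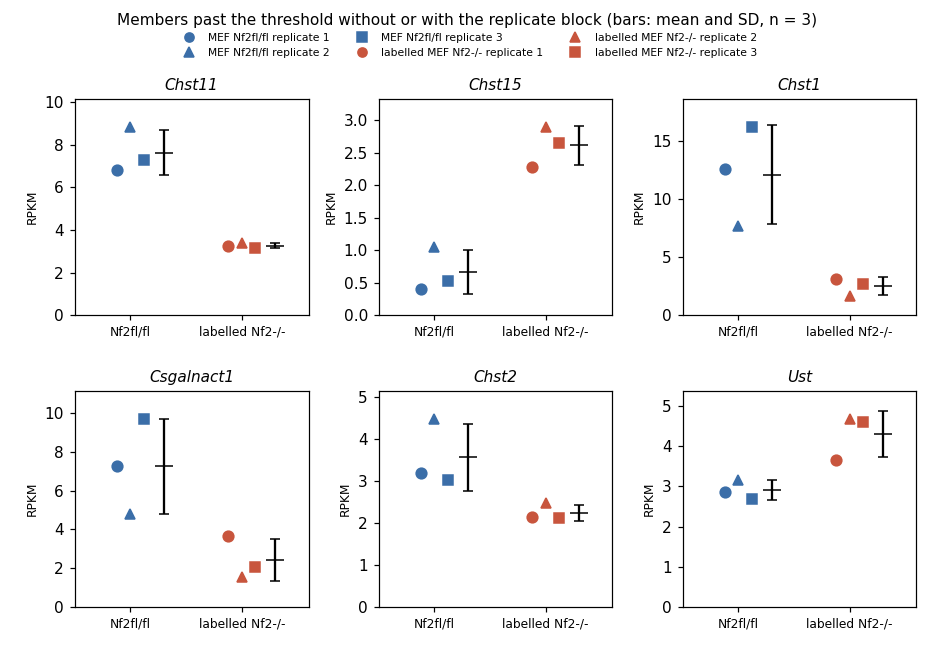
RPKM of Chst11, Chst15, Chst1, Csgalnact1, Chst2 and Ust in each library, on axes that start at 0, with the mean and SD of 3 libraries beside the points; the shape gives the replicate number. In each panel the lines do not overlap, and Chst15 and Ust are the panels in which libraries labelled Nf2 KO sit higher.

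Of the 4 linker enzymes tested, 0 passed in either fit (0 at an unadjusted p under 0.05 in the unblocked limma fit). Xylt2, B4galt7, B3galt6 and B3gat3, which add xylose, the galactoses and glucuronic acid in turn, had log2 fold changes of -0.16 to 0.16, and their libraries overlapped. B3gat3 was the highest, at 20.6, 20.5 and 17.2 RPKM in MEF Nf2fl/fl, against 19.0, 17.6 and 19.7 RPKM in libraries labelled Nf2 KO. The other xylosyltransferase, Xylt1, was under the filter at 0.5, 0.229 and 0.315 RPKM and at 0.0630, 0.0107 and 0.0454 RPKM. Those values rested on 64.8, 41.9 and 185.6 reads against 11, 2 and 31.9 reads, and the lines did not overlap. Xylt2, at 5.95 RPKM on average, was the more abundant xylosyltransferase in each library.

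Of the chondroitin polymerases, Chpf was the highest. This subunit works with Chsy1 or Chsy3 to extend the chain. It was at 22.5, 24.6 and 24.8 RPKM in MEF Nf2fl/fl, against 19.4, 20 and 18.5 RPKM in libraries labelled Nf2 KO. The lines did not overlap, yet the log2 fold change of -0.30 did not pass (SE 0.09, limma adjusted p = 0.254 unblocked and 0.0628 blocked). Chsy1, Csgalnact2 and Chpf2 overlapped between the lines, with log2 fold changes of -0.17, -0.11 and -0.11, and 44.1% of the exon bases of Chpf2 are shared with Smarcd3 and a microRNA gene. Chsy3 was under the filter, at 0.456 to 0.486 RPKM in MEF Nf2fl/fl and at 0.207 to 0.247 RPKM in libraries labelled Nf2 KO, a gap wider than the spread of either line. The 6 genes summed to 58.7 ± 5.59 and 46.7 ± 5.96 RPKM (SD, n = 3 each). This was 1 of 3 class sums without overlap between the lines, with the galactose and N-acetylglucosamine sulfotransferases (15.7 and 4.74 RPKM) and the precursor enzymes (74.9 and 63.3 RPKM). Most of the gap lay in Csgalnact1 and Chpf for the chondroitin polymerases, in Chst1 for these sulfotransferases and in Ugdh for the precursor enzymes. A share over all genes was not computed for such sums. The sums of the other 6 classes overlapped, among them the linker at 34.2 and 33.2 RPKM, chondroitin sulfation at 75.0 and 76.7 RPKM and heparan polymerization at 51.5 and 49.1 RPKM.

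None of the other 5 tested genes for chondroitin and dermatan sulfation, Chst7, Chst12, Chst14, Dse and Dsel, passed in either fit. Chst14, the dermatan 4-O-sulfotransferase, was the highest of them at 21.2, 21.1 and 22.8 RPKM in MEF Nf2fl/fl, against 24.0, 21.9 and 23.8 RPKM in libraries labelled Nf2 KO. Dse, the epimerase that makes dermatan sulfate, was at 17.0 to 19.6 and 18.0 to 21.9 RPKM. Its relative Dsel was at 5.37, 5.78 and 5.43 RPKM and at 4.84, 4.96 and 4.57 RPKM, apart in all libraries but with a log2 fold change of only -0.17 (limma adjusted p = 0.608). Chst12, also a chondroitin 4-O-sulfotransferase, was at 12.9 to 15.2 and 10.3 to 15.1 RPKM. With Chst12 at this level and Chst11 lower, the share of Chst11 was lower in libraries labelled Nf2 KO. It was taken of the summed RPKM of Chst11, Chst12 and Chst13, and leaves out the more abundant Chst14. Chst11 made up 34.5%, 39.9% and 32.3% of that sum in MEF Nf2fl/fl, and 18.7%, 24.9% and 17.3% in libraries labelled Nf2 KO. For each 100 RPKM of Chst11 and Chst12 together there were 2.1, 4.8 and 2.4 RPKM of Chst15 in MEF Nf2fl/fl, against 13.2, 21.1 and 14.5 RPKM in libraries labelled Nf2 KO. These shares restate the differences of the single genes and are given without a test. For 6-O-sulfation of chondroitin, Chst7 was at 2.83 to 7.03 and 3.36 to 6.82 RPKM, while Chst3 stayed at or below 0.0704 RPKM in each library.

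**Figure D4:**
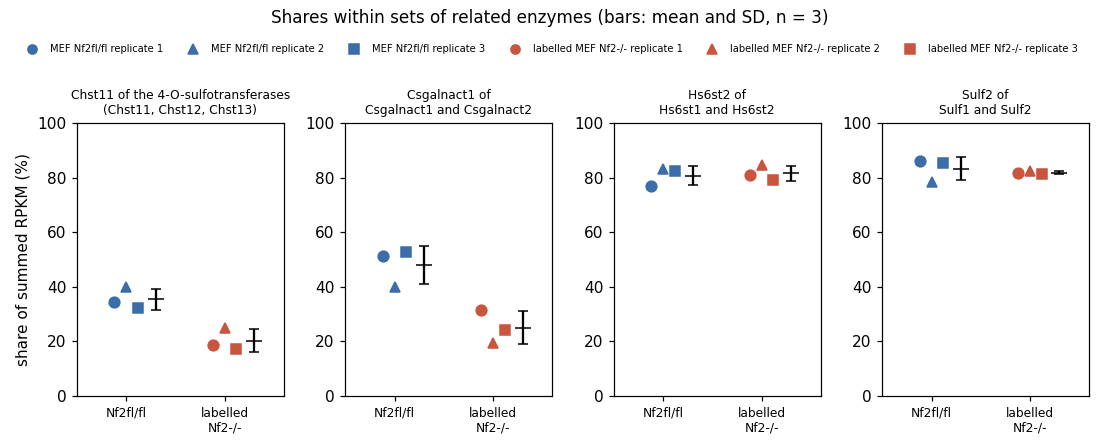
Share of summed RPKM, in percent, that Chst11, Csgalnact1, Hs6st2 and Sulf2 take among related enzymes in each library, with the mean and SD of 3 libraries beside the points. Chst11 stands at 35.5% ± 3.9 and 20.3% ± 4.1 and Csgalnact1 at 48.0% ± 7.1 and 25.0% ± 6.0, while Hs6st2 and Sulf2 overlap between the lines.

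Of the 12 heparan sulfate genes tested, 0 passed in either fit (0 at an unadjusted p under 0.05 in the unblocked limma fit, where 1097 of the 11067 genes were), and the lines did not overlap in 2 of them, Hs6st2 and Hs2st1, against 15.1% of all genes tested. Ext1 and Ext2, which together form the heparan polymerase, had log2 fold changes of -0.21 and 0.04 (limma adjusted p = 0.963 and 0.988). Extl2 and Extl3 lay between 7.45 and 9.45 RPKM in each of the 6 libraries. Ndst1, which opens heparan modification by swapping acetyl for sulfate on glucosamine, was at 14.2, 16.4 and 14.1 RPKM in MEF Nf2fl/fl, against 14.3, 14.4 and 14.7 RPKM in libraries labelled Nf2 KO. Ndst2 and the epimerase Glce also overlapped. Among these genes the widest difference was that of Hs6st2, a 6-O-sulfotransferase, at 20, 28.4 and 28.9 RPKM and at 35.3, 29.3 and 37.0 RPKM, and the log2 fold change came to 0.39 (SE 0.17, limma adjusted p = 0.520). The pairs of same-numbered libraries gave 0.79, 0.04 and 0.35. Without replicate 1 of MEF Nf2fl/fl, its lowest library, the log2 fold change was 0.228. Hs2st1, the 2-O-sulfotransferase, was at 13.8, 13.1 and 13.0 RPKM and at 12.3, 11.2 and 10.6 RPKM (log2 fold change -0.21, limma adjusted p = 0.517).

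Hs6st2 took 76.8% to 83.3% of the summed RPKM of Hs6st1 and Hs6st2 in MEF Nf2fl/fl and 79.1% to 84.6% in libraries labelled Nf2 KO. The endosulfatases Sulf1 and Sulf2, secreted enzymes that remove 6-O-sulfate from finished heparan chains, overlapped between the lines. Sulf2 was at 64.4, 54.7 and 80.6 RPKM and at 78.7, 66.9 and 67.3 RPKM. The 3-O-sulfotransferases among the 46 genes, Hs3st1, Hs3st3a1 and Hs3st3b1, were under the filter. Hs3st3a1 was at 0.309 to 0.367 RPKM in MEF Nf2fl/fl and 0.411 to 0.476 RPKM in libraries labelled Nf2 KO, and Hs3st3b1 went the other way, at 0.290 to 0.439 and 0.164 to 0.268 RPKM. Of the 31-base stretches of Hs3st3a1, 44.5% occur in other genes, most in F930015N05Rik, and 9.8% of those of Hs3st3b1 occur in others, most in Hs3st3a1, so this pair is uncertain. Ndst3 was at 0.459 to 0.803 and 0.179 to 0.441 RPKM. With Xylt1 and Chsy3, 5 of the 11 genes under the filter had lines that did not overlap, 1 higher and 4 lower. Among all genes under the filter 9.42% did so. That share is not a like comparison, since it covers many genes at 0 in some libraries (3156 to 6858 genes in each library).

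Among the precursor enzymes, Ugdh differed most. It makes UDP-glucuronic acid, the sugar donor shared by chondroitin, heparan and hyaluronan. It was at 31.7, 42.4 and 31.9 RPKM in MEF Nf2fl/fl, against 25.1, 22.1 and 24.9 RPKM in libraries labelled Nf2 KO. The lines did not overlap, but the log2 fold change of -0.53 did not pass (SE 0.14, limma adjusted p = 0.198 unblocked and 0.0771 blocked). The PAPS synthases Papss1 and Papss2, which make the sulfate donor, overlapped, with log2 fold changes of -0.06 and 0.13.

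Has2 was the hyaluronan synthase of these cells, with 83.1% to 99.4% of the summed RPKM of Has1, Has2 and Has3 in each library. It was at 4.75, 22.4 and 6.15 RPKM in MEF Nf2fl/fl, against 9.45, 27.7 and 6.75 RPKM in libraries labelled Nf2 KO. Replicate 2, marked B, was far above the others in both lines, and the line difference was small beside it (log2 fold change 0.42, SE 0.66, limma adjusted p = 0.963 unblocked and 0.171 blocked). Leaving out 1 library moved it to between -0.134, without replicate 2 of those labelled Nf2 KO, and 1.045, without replicate 2 of MEF Nf2fl/fl. On the log2(RPKM + 1) scale replicate 2 stood 1.77 above the mean of replicates 1 and 3. Ext1 and Chst7 were also higher in replicate 2 of both lines, by 0.83 and 0.81, and Chpf2 and Chst1 were lower, by a log2 difference of -0.74 and -0.69. In 17 of the 35 tested genes (48.6%) this difference was larger than that between the lines, against 67.7% of all genes tested. Has1 was under the filter, at 0.888, 0.292 and 0.643 RPKM and at 0.294, 0.103 and 0.0696 RPKM, where the lines overlapped by a narrow margin. Has3 stayed at or below 0.121 RPKM.

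**Figure D5:**
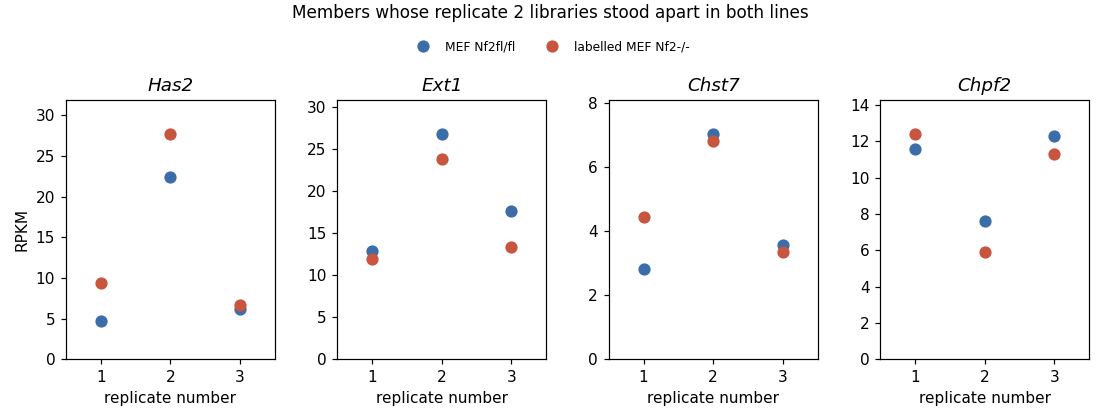
RPKM of Has2, Ext1, Chst7 and Chpf2 against replicate number, on axes that start at 0; blue points are MEF Nf2fl/fl and red points libraries labelled Nf2 KO. In each panel both replicate 2 points lie on the same side of replicates 1 and 3, for Has2 at 22.4 and 27.7 RPKM.

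Genes around the pathway were taken from 6 lists written from general knowledge. Over all genes tested the median log2 fold change was -0.008, and 1.06% passed without and 7.53% with the block. Of 3 tested further chain enzymes 0 passed (0 at an unadjusted p under 0.05 from limma) with a median of -0.051, and Fam20b, the kinase of the linker xylose, was the highest at 9.23 to 11.7 RPKM. Of 16 tested genes for sugar and sulfate supply, with a median of 0.081, 1 passed. This was Gfpt2, which feeds the hexosamine pathway, from 1.22 ± 0.214 to 0.287 ± 0.0923 RPKM (SD, n = 3 each). The log2 fold change came to -0.78 (limma adjusted p = 0.0499). It passed the filter only through MEF Nf2fl/fl. The highest gene of that list, the phosphatase gene Impad1, was at 24.5 to 29.6 RPKM, and the lines overlapped. Of 17 tested genes for chain breakdown 0 passed (2 at an unadjusted p under 0.05 from limma) with a median of -0.078, and with the block Cemip2, a hyaluronan-degrading surface protein, passed at 7.14, 9.80 and 6.94 RPKM against 10.5, 11.9 and 9.00 RPKM (limma adjusted p = 0.530 unblocked and 0.0416 blocked), although its lines overlapped. Its relative Cemip, picked after its values were seen, lay the other way without overlap, at 4.14 ± 1.03 and 2.09 ± 0.284 RPKM (log2 fold change -0.72, limma adjusted p = 0.166 unblocked and 0.0679 blocked). The highest gene for breakdown, Hexa, a subunit of the lysosomal hexosaminidase, was at 26.5 to 42.8 RPKM, and the lines overlapped.

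Core proteins carry the finished chains. Of 7 tested chondroitin or dermatan sulfate core proteins 2 passed, both lower, and the median log2 fold change was -0.346. Cspg4 was at 13.3 ± 2.15 and 5.78 ± 0.855 RPKM (SD, n = 3 each, log2 fold change -1.08, limma adjusted p = 0.0329), and Dcn at 2.73 ± 1.21 and 0.0906 ± 0.0563 RPKM (log2 fold change -1.72, limma adjusted p = 0.0348), the latter also a fibroblast marker and past the filter only through MEF Nf2fl/fl. The lines did not overlap in 5 of the 7, 2 higher and 3 lower, against 15.1% of all genes tested (7.6% higher and 7.52% lower). The higher ones, picked after their values were seen, were Col12a1 at 22.5 ± 6.19 and 43.6 ± 5.74 RPKM (limma adjusted p = 0.142) and Ptprz1 at 0.479 ± 0.268 and 1.5 ± 0.253 RPKM (limma adjusted p = 0.126), the latter past the filter only through libraries labelled Nf2 KO. Of 12 tested heparan sulfate core proteins 2 passed, in opposite directions, and the median log2 fold change was -0.196. The lines did not overlap in 6 of the 12, 1 higher and 5 lower. Gpc4 was at 36.5 ± 7.75 and 89.0 ± 4.57 RPKM (log2 fold change 1.28, limma adjusted p = 0.0259), and Gpc1 at 20.6 ± 2.07 and 11 ± 1.7 RPKM (log2 fold change -0.85, limma adjusted p = 0.0463; SD, n = 3 each). With the block 3 more passed, all lower. Sdc3 had a log2 fold change of -0.78 (limma adjusted p = 0.0946 unblocked and 0.00629 blocked), Col18a1 one of -1.74 (limma adjusted p = 0.102 unblocked and 0.0318 blocked) and Tgfbr3 one of -0.87 (limma adjusted p = 0.366 unblocked and 0.0284 blocked). Of 4 tested hyaluronan-binding genes 0 passed (1 at an unadjusted p under 0.05 from limma), with a median of 0.043. With the block, the hyaluronan receptor Cd44 passed lower (log2 fold change -0.76, limma adjusted p = 0.0105) and Tnfaip6, which links heavy chains to hyaluronan, passed higher (0.70, limma adjusted p = 0.0188). Cd44 followed the replicate number as Has2 did, at 106 and 70.9 RPKM in replicate 2 and 24.4 to 47.1 RPKM elsewhere. The core proteins with the highest mean over the 6 libraries in their lists, Bgn at 178 to 301 RPKM and Hspg2 at 72.4 to 89.9 RPKM, did not pass in either fit, although the lines did not overlap for Bgn. In libraries labelled Nf2 KO, Gpc4 at 84.0 to 92.9 RPKM lay above Hspg2.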

How the data were processed

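Total RNA was extracted with the RNeasy Mini kit, and 3 MEF Nf2fl/fl and 3 MEF Nf2-/- libraries were prepared and sequenced by GENEWIZ. The authors deposited 1 table with 1 column per library, taken here as RPKM. Per the labels the genome build was mm10, and the aligner, counter and unit are not given in the sources used here. The unit was read from the values. Columns summed to 250088 to 263424, and for the 25983 genes with an exon length in GENCODE vM21 83.79% to 85.62% of values of up to 20 reads came within 0.05 of a whole read, against 4.07% to 8.16% for the median of other steps. That step gave the depth. The sources do not say if reads or read pairs were counted.

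The study's log2 transform with 1 added was kept, which understates the change of low genes. The 11067 genes that reached 1 RPKM in 3 or more libraries entered limma 3.58.1 (R 4.3.3), run with its trend and robust options. Tests were two-sided, p-values were adjusted by Benjamini-Hochberg across these genes, and the threshold was 0.05. The study used an unpaired test, so no block was used in the main result. After subtracting each line mean, libraries sharing a number correlated across genes at 0.552, 0.819 and 0.516, and the numbers were taken as pairs, so the blocked value is printed where it changes a call. The script was tested on simulated data. Figures were drawn with matplotlib 3.10.9.

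The 46 genes and the lists were chosen with earlier results of these data known. Of the 46, genes were named if they passed with or without the block, had a mean of at least 1 RPKM in either line and lines that did not overlap, or were the highest of their class, and in the other lists if they passed or were the highest of their list; other genes are given by range, and those described beyond this rule, such as the genes under the filter and the replicate 2 examples, were picked after their values were seen.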

Additional observations from a re-analysis of the deposited data

How the results depend on the processing

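The number of members past the threshold was 3. It became 0 with no filter (11 at an unadjusted p under 0.05 from limma), in a fit that tests 26231 genes, and 6 with the replicate block (2 higher, 4 lower). It ran from 0 to 4 when a replicate number or a library was left out, at 0 when a library of replicate 1 or 3, or the pair, was left out and at 1 without replicate 2 of those labelled Nf2 KO. With the block and a replicate number left out, an alternative chosen after seeing the data, it ran from 3 to 4. For all genes the number was 117, and it became 9 with no filter, 63 with a filter of 5 RPKM, 833 with the replicate block and 0 to 484 in the fits that left something out. For the 6 other lists together it was 5, and it became 0 with no filter, 2 with a filter of 5 RPKM, 11 with the replicate block and 0 to 9 in the fits that left something out. The block keeps the same 6 libraries and 11067 genes and changes only the model, while the filters and the fits that left something out change the genes or the samples. The cause was not tested further. The filter of 5 RPKM removes Chst15 and leaves 2 members past the threshold. The number was also 2 with a pseudocount of 0.1, quantile normalization or median centring, and 3 without the trend and robust options. With a pseudocount of 0.1 Chst15 did not pass (adjusted p = 0.0627 from limma). The log2 fold changes of Chst11, Chst15 and Chst1 kept their sign in each alternative that gave a value, at -1.19 to -0.91, 1.02 to 1.91 and -2.22 to -1.66. Depth limits the genes under the filter most, with 0 reads in at least 1 library for Chst13 and Extl1 and as few as 2 for Xylt1, Chst3 and Hs3st1.

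The sign of the log2 fold change turned in some fits that left out a replicate number or a library for 16 members that did not pass, and for Nf2. Over these fits the value ran from -0.079 to 0.205 for B3galt6, -0.16 to 0.034 for B3gat3, -0.258 to 0.011 for Csgalnact2, -0.273 to 0.007 for Chsy1, -0.307 to 0.188 for Chpf2 and -0.091 to 0.45 for Chst7. It ran from -0.181 to 0.078 for Chst12, -0.501 to 0.051 for Ext1, -0.05 to 0.164 for Ext2, -0.166 to 0.005 for Extl2, -0.043 to 0.045 for Extl3 and -0.082 to 0.038 for Ndst1. It ran from -0.026 to 0.286 for Sulf2, -0.18 to 0.06 for Papss1, -0.026 to 0.22 for Papss2, -0.134 to 1.045 for Has2 and -0.03 to 0.091 for Nf2. With the replicate block and a replicate number left out the turned values were -0.054 for B3galt6, 0.034 for B3gat3, 0.011 for Csgalnact2, 0.007 for Chsy1, -0.053 for Chst7, 0.055 for Chst12, -0.05 for Ext2, 0.005 for Extl2, -0.043 for Extl3, 0.038 for Ndst1 and -0.001 for Nf2. No direction is read for these genes.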
